A study of Populus trichocarpa with 12 samples.

Results

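In differentiating stem xylem of black cottonwood (Populus trichocarpa), 1316 genomic regions carried more histone H3 lysine 9 acetylation (H3K9ac) on both drought days than in watered plants. The mark was mapped by ChIP-seq, which sequences the DNA bound by an antibody to it, in greenhouse plants aged 3 months. Day 0 plants were fully irrigated, with a soil water content of 74% and a xylem water content of 80.6%. Day 5 plants had gone 5 days without water, with 33% and 75.3%, and day 7 plants 7 days, with 29% and 74.3%. Every day has 2 H3K9ac and 2 input libraries, which makes 12 samples in 6 groups. The labels give no genotype or sequencing batch and do not say whether the replicates were separate plants. The p-values below therefore measure the spread between these libraries, which may be technical. The samples include no watered plants of day 5 or day 7, so that drought and any other difference from day 0 cannot be told apart.

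H3K9ac is a mark of active and inducible promoters. Histone acetyltransferases such as GCN5 place it, histone deacetylases remove it, and in plants it lies mainly around the start of transcribed genes. Stem-differentiating xylem is the tissue in which the derivatives of the vascular cambium expand and lay down the secondary walls of wood. In plants short of water, abscisic acid signalling and its bZIP transcription factors of the AREB/ABF group switch on response genes, and gains of histone acetylation have been described at such genes. The genome build behind the coordinates is not fully given in the sources, so no gene was assigned to a region, and regions are given by their position alone.

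The authors' deposited tables list regions that differed between a drought day and day 0, 10605 at day 5 and 12101 at day 7. A day 5 and a day 7 region were taken as the same when their overlap covered at least 50% of each, which gave 5871 pairs. A pair was a member when, on both days, both drought libraries lay above both day 0 libraries, the mean rose at least 1.2-fold, the region was shorter than 3000 bp and its enrichment over input was at least 0.5. This rule kept 1316 pairs, or 22.4% of all pairs, 12.4% of the regions listed at day 5 and 10.9% of those listed at day 7. No listed region entered more than 1 member. The members were thus chosen by the drought and day 0 reads and the enrichment, so their gain over day 0 is a description without a test, and both days share the same day 0 libraries. In the tables as a whole, both drought libraries lay above both day 0 libraries in 45.8% of the regions at day 5 and in 47.4% at day 7. At day 5, 1287 members passed an adjusted p of 0.05 in the authors' deposited table, against 43.3% of all listed regions called as gains. At day 7 the authors' deposited table called 1295 members, against 44.1% of listed regions, and 1268 members were called on both days. Every member is a gain by the rule, while the listed regions include losses, and all of them had passed the authors' p-value threshold. These counts therefore follow largely from the selection and are no test of the members. The count of members rested on the normalisation: with the reads left unscaled, 391 pairs met the rule. Where at least 80% of each region had to overlap, 725 did, and with a fold of at least 1.5, 341 did.

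After the authors' normalisation, the gains had similar medians on both days. At day 5 the members rose by up to 2.87-fold, with a median of 1.43-fold and quartiles of 1.33 and 1.555. At day 7 they rose by up to 2.98-fold, with a median of 1.46-fold and quartiles of 1.35 and 1.59. On unscaled reads the medians were 1.37-fold at day 5 and 1.17-fold at day 7. A fold of at least 1.5 was reached by 448 members at day 5, by 531 at day 7 and by 341 on both days. A fold of at least 2 was reached by 37, 64 and 28 members. At the lower end, the smaller of the 2 folds was under 1.3 in 348 members.

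The rule sets the order of the libraries in every member, so the spread between replicates is given here as a description. The median fold over the day 0 mean was 1.39 in day 5 replicate 1 and 1.48 in replicate 2, and 1.42 and 1.48 in the day 7 replicates. Within a member, the ratio of the higher to the lower replicate had medians of 1.09 and 1.08 at day 5 and day 7, with 1.06 at day 0. The lower drought library stood a median of 1.301 times above the higher day 0 library at day 5 and 1.33 times at day 7. This gap was at least 1.2-fold in 1070 members at day 5 and in 1107 at day 7. Replicate 2 was the higher library in 63.8% of members at day 5 and 63.9% at day 7, against 50.9% and 51.1% of all listed regions. Replicate 2 was the shallower library at day 5, with a normalisation constant of 0.80 against 1.18 for replicate 1, and the deeper at day 7, with 1.00 against 0.79.

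**Figure D1:**
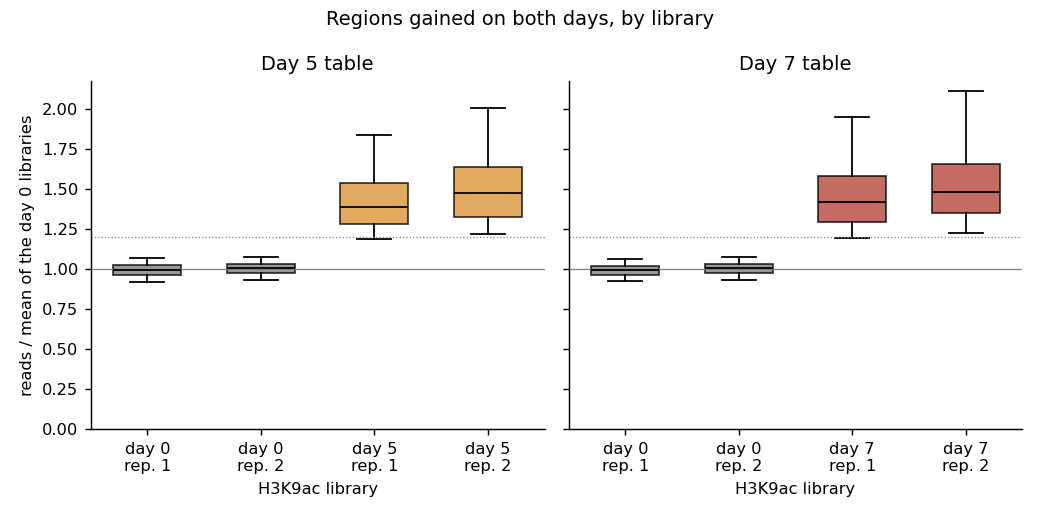
Normalised H3K9ac reads of the 1316 members in each library, divided by the mean of the 2 day 0 libraries of the same table (y axis), by library (x axis). Boxes give the median and quartiles, whiskers the 5th and 95th percentiles, the solid line 1 and the dotted line the fold of 1.2 in the rule. The day 5 medians are 1.39 and 1.48 and the day 7 medians 1.42 and 1.48.

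The strongest gain on both days lay on chromosome 11 at 4987601 to 4989900. Its normalised reads were 393 and 297 at day 0 and 1049 and 934 at day 5, a rise of 2.87-fold. In the day 7 table, where the region ended at 4989800, they were 360 and 272 at day 0 and 850 and 890 at day 7, a rise of 2.75-fold. Even the lower drought library held 2.38 times the reads of the higher day 0 library at day 5 and 2.36 times at day 7. The 7 members next in order, ranked by the smaller of the 2 folds, had smaller folds between 2.32 and 2.52. In none of them did the lower drought library fall below 2.01 times the higher day 0 library.

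On chromosome 1 at 17556501 to 17558700, the reads rose from 251 and 271 to 610 and 710 at day 5, which is 2.53-fold. At day 7 they rose from 219 and 241 to 568 and 594, which is 2.52-fold. This was the member among the 8 whose folds on the 2 days lay closest, with a difference of 0.00 (SE 0.10) on the log2 scale. On chromosome 12 at 12089701 to 12092600, the reads rose from 481 and 441 to 1176 and 1228 at day 5 and from 441 and 403 to 1141 and 927 at day 7, by 2.61 and 2.45-fold. This region stood only 1.15 times above input at day 5 and 1.26 times at day 7, the weakest enrichment among the 8. On chromosome 6 at 2628701 to 2630700, with identical edges in both tables, the reads rose from 235 and 207 to 521 and 519 at day 5. At day 7 they rose from 215 and 189 to 522 and 580, so that the fold was 2.36 at day 5 and 2.73 at day 7. Its enrichment of 3.23 and 3.05 was the highest of the 8.

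On chromosome 1 at 33770301 to 33772900, the reads rose from 396 and 416 to 1050 and 1144 at day 5, by 2.70-fold. At day 7 they rose from 363 and 380 to 898 and 835, by 2.33-fold. Another member began 300 bp further on and is described below, since it was the member with the largest fall from day 5 to day 7. On chromosome 10 at 9919301 to 9921400, the reads rose from 290 and 291 to 743 and 741 at day 5 and from 266 and 267 to 572 and 670 at day 7, by 2.55 and 2.33-fold. The day 0 and day 5 replicates of this region were nearly equal, and the day 7 replicates differed by a ratio of 1.17. On chromosome 1 at 39459701 to 39462400, they rose from 341 and 334 to 887 and 841 at day 5 and from 312 and 293 to 754 and 652 at day 7, by 2.56 and 2.32-fold. On chromosome 10 at 1551201 to 1553300, they rose from 247 and 223 to 497 and 595 at day 5, by 2.32-fold. At day 7, in a region 200 bp longer, they rose from 231 and 209 to 599 and 711, by 2.98-fold, the largest fold at day 7. In all 8 regions and both tables, both drought libraries lay well above both day 0 libraries. The rule requires this order, though not its size, of every member.

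**Figure D2:**
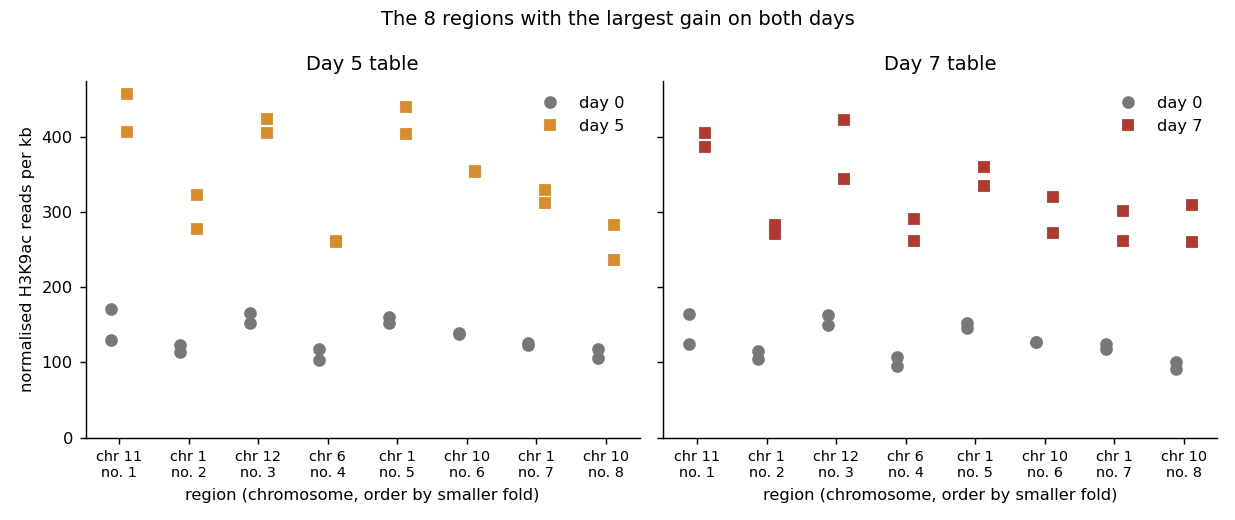
Normalised H3K9ac reads per kb (y axis) in each library for the 8 members with the largest smaller fold, in order (x axis), with day 0 as circles and the drought day as squares. At day 0 these regions held 91.1 to 171 reads per kb in single libraries. Every drought library lay above every day 0 library of its region and table, as the rule requires of all members.

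The 28 members that at least doubled on both days came from 14 chromosomes. They were long, with a median length of 2250 bp at day 5 against 1700 bp for all members. Their day 0 level was low, with a median of 150 normalised reads per kb against 207. Their enrichment had a median of 2.24, against 2.03 for all members over both days. In 2 of the 28 the rise of H3K9ac did not exceed that of the input on at least 1 day.

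At the threshold, members and non-members differed by little. The member nearest to it, on chromosome 5 at 24260101 to 24261900, rose from 997 and 974 reads to 1234 and 1132 at day 5, a fold of 1.2003. On chromosome 6 at 12744201 to 12745200 the day 5 fold was 1.2008, and on chromosome 2 at 21585301 to 21586700 the day 7 fold was 1.2009. Just outside lay a pair on chromosome 17 at 10645701 to 10647400, with a day 5 fold of 1.1999. The next lay on chromosome 8 at 9942501 to 9944400 and on chromosome 1 at 10699001 to 10700500, with day 7 folds of 1.1992 and 1.1991. In all, 510 pairs met the rule in everything but the fold.

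Members started from a lower level than the regions that lost the mark, as did regions gained on a single day. Regions lost on both days were taken by the mirrored rule, and 2025 pairs met it. In the day 5 table, the members had a median of 207 normalised reads per kb at day 0 and 296 at day 5, while the regions lost on both days went from 300 to 209. In the day 7 table the members went from 191 to 277 and the lost regions from 278 to 195. All listed regions had day 0 medians of 277 and 246 in the 2 tables, and regions gained at day 5 alone and at day 7 alone had 206 and 191. The day 0 medians of the same libraries differ between the tables because each table has its own normalisation. Since the day 0 level is the denominator of the fold that chose the members, these levels are a description.

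**Figure D3:**
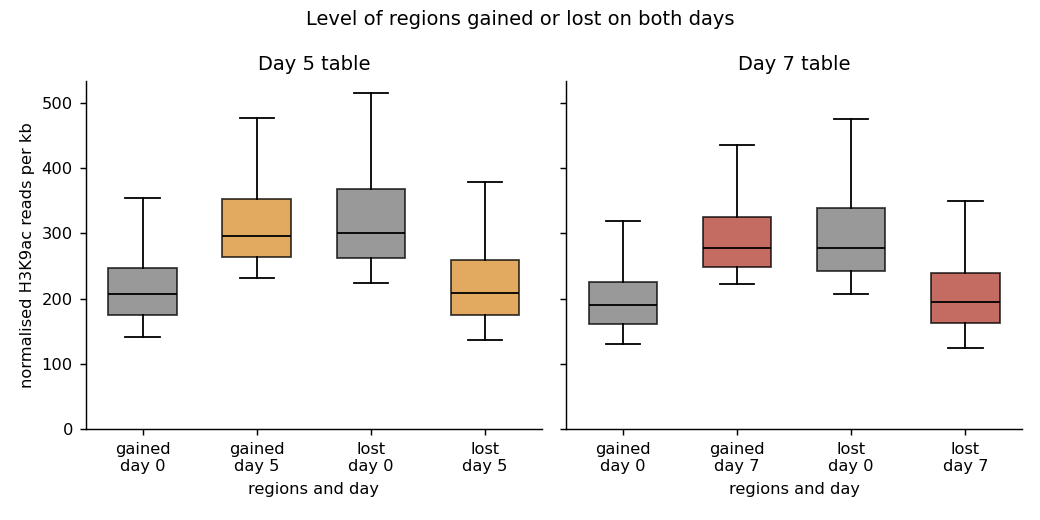
Normalised H3K9ac reads per kb (y axis) at day 0 and on the drought day for the 1316 regions gained and the 2025 regions lost on both days (x axis), in the day 5 table and the day 7 table. Boxes give the median and quartiles and whiskers the 5th and 95th percentiles. The day 0 median of the gained regions (207 and 191) is near the drought median of the lost regions (209 and 195).

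Among the members, those with the least H3K9ac at day 0 gained the most. The 329 members with the lowest day 0 reads per kb rose by a median of 1.61-fold at day 5 and by 1.63-fold at day 7. The 329 with the highest rose by 1.33 and 1.37-fold. A fold of at least 1.5 at day 5 was reached by 245 of the former and 30 of the latter. The same day 0 reads set both the order and the fold here. The 4 members with the most day 0 reads show the upper end. On chromosome 10 at 19181401 to 19183000 the reads were 963 and 913 at day 0 and 1066 and 1199 at day 5, a fold of 1.21, with 1.26 at day 7. On chromosome 7 at 98101 to 99900 they were 1024 and 1021 at day 0 and 1203 and 1307 at day 5, a fold of 1.23 on both days. The region on chromosome 5 at 24260101, already given as nearest to the threshold, was the next. On chromosome 5 at 16607701 to 16609600 the reads rose from 985 and 952 to 1267 and 1225 at day 5, by 1.29-fold, and by 1.46-fold at day 7. None of these 4 reached a fold of 1.5.

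Longer members also had larger folds. Members of 1000 bp on average over the 2 days, 59 in number, rose by a median of 1.38-fold on either day. The 83 members of 2500 to 3000 bp rose by 1.61 and 1.66-fold on the 2 days. A region is a merger of windows that passed the authors' threshold, so its length is set by the same contrast. The members spanned 2231 kb at day 5 and 2238 kb at day 7, of which 1954 kb were shared. Their length ran from 1000 to 2900 bp with a median of 1700 bp on either day. Regions lost on both days had the same median, while all listed regions had 1300 bp at day 5 and 1200 bp at day 7, and regions gained on a single day 1100 bp.

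The rule limits how far the edges of a member can shift between the days, by its overlap of at least 50% and its length limit. Within that limit the median shift was 100 bp at either end, which is the step of the authors' windows. All edges were identical in 104 of the 1316 members, against 593 of all 5871 pairs. Of the members, 333 kept their start and 330 their end. The day 7 region held the whole day 5 region in 437 further members, the reverse was true of 470, and in 305 neither held the other. The best window, which is the window of a region that the authors' tables single out, moved more. In the authors' deposited tables, this 1000 bp window lay in the same place on both days in 136 of the 1034 members longer than 1000 bp, and within 200 bp in 474, or 45.8%. Among the regions lost on both days 51.4% of 1664 lay within 200 bp. In 93 members the best windows of the 2 days did not overlap. The log2 fold of the best window in the authors' deposited table had a median of 0.57 at day 5 and 0.61 at day 7, against 0.52 and 0.54 for the whole region. Its log2 fold was below that of the whole region in 333 of 1150 members longer than 1000 bp at day 5 and in 299 of 1141 at day 7 in the authors' deposited table. The best window reached a log2 fold of 1 in 92 members at day 5 and 127 at day 7 in the authors' deposited table.

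Nearly all members were enriched over input, as were nearly all listed regions. Enrichment is given as the geometric mean of the drought and day 0 values over input, and the rule used it only as a floor of 0.5. Its median was 2.13 at day 5 and 1.95 at day 7, against 1.89 and 1.76 for all listed regions and 1.64 and 1.67 for those lost on both days. An enrichment of at least 2 was found in 57.1% of members at day 5 and 45.7% at day 7, against 44.1% and 34.8% of listed regions. Regions gained at day 5 alone had a median of 2.21, above that of the members, and those gained at day 7 alone 1.61. These differences were not tested. The gain barely varied with enrichment: the lowest 329 members rose by a median of 1.44-fold at day 5 and 1.47-fold at day 7, and the highest 329 by 1.41 and 1.42-fold.

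The 4 members with the highest mean enrichment over the 2 days were not among the strongest gains. On chromosome 17 at 8759301 to 8760800, enriched 5.69 times at day 5 and 4.56 times at day 7, the reads rose from 242 and 271 to 357 and 436 at day 5 and from 193 and 213 to 268 and 260 at day 7. These are folds of 1.54 and 1.301. On chromosome 17 at 5342101 to 5343200, enriched 5.50 and 4.64 times, the folds were 1.39 and 1.41. On chromosome 7 at 6753001 to 6754200, enriched 6.84 and 3.39 times, they were 1.51 and 1.27. On chromosome 10 at 14072901 to 14074700, enriched 4.35 and 4.97 times, they were 1.39 and 1.45. The first 3 had input changes at day 7 of 0.51, 0.30 and 0.74 on the log2 scale, where the median listed region had -0.26. With that median set to 0, their H3K9ac fold relative to input at day 7 was below 0 on that scale.

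The input moved differently with the members on the 2 days. Its change between a drought day and day 0, on the log2 scale, can be read only through the deposited enrichments. Its zero is not fixed, since the depth of the inputs is unknown, so each value is read against the median of all listed regions in its table. The median change over the members was -0.34 at day 5, below the -0.24 of all listed regions, and -0.17 at day 7, above the -0.26 of all listed regions. The input rose relative to the median listed region in 480 members, or 36.5%, at day 5 and in 895, or 68.0%, at day 7. Among the regions lost on both days these shares were 58.5% and 43.2%. With the relative input change subtracted, the members' median log2 fold was 0.66 at day 5 and 0.45 at day 7. It was above 0 on both days in 1175 members. It was at or below 0 in 68 members at day 5, in 78 at day 7 and in 5 on both days. The inputs' depth and their replicates are not in these values, so the part of the input in the gains was not tested.

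**Figure D4:**
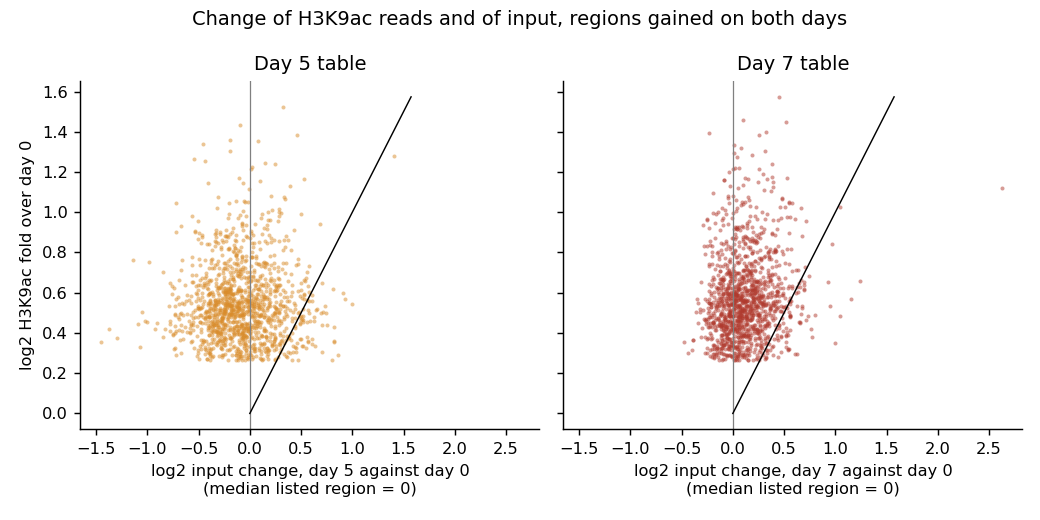
Log2 H3K9ac fold over day 0 (y axis) against the log2 change of input relative to the median listed region (x axis) for the 1316 members, a point each, at day 5 and at day 7. Points right of the black line (68 at day 5, 78 at day 7) have an input rise at least as large as the H3K9ac gain, and the point farthest right in both panels is the region on chromosome 13.

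The extreme of the input was a region on chromosome 13 at 6413601 to 6415400. Input changes here are given before subtraction of the median of all listed regions, -0.24 at day 5 and -0.26 at day 7. In this region the input change was 1.17 at day 5 and 2.36 at day 7 on the log2 scale. The H3K9ac reads rose from 203 and 297 to 420 and 794 at day 5 and from 168 and 232 to 298 and 569 at day 7, folds of 2.43 and 2.17. Relative to input, with that median subtracted from the input change, the log2 change of H3K9ac was -0.13 at day 5 and -1.50 at day 7. Its enrichment was 0.818 and 0.535, close to the floor of the rule, and its drought replicates differed most of all members, with ratios of 1.89 and 1.91. By the smaller change of the 2 days, the next largest input rise lay on chromosome 11 at 3067801 to 3069300, with 0.45 and 0.35, and its H3K9ac rose by 1.92 and 1.96-fold. By the same measure the largest falls of input lay on chromosome 4 at 6194201 to 6195300, with -0.62 and -0.65, and on chromosome 1 at 43637801 to 43639400, with -0.60 and -0.58. Their H3K9ac folds were 1.27 and 1.29 on chromosome 4, and 1.32 and 1.42 on chromosome 1. Apart from chromosome 13, the replicates differed most on chromosome 10 at 20924101 to 20926300. There the day 5 replicates held 715 and 1258 reads over 636 and 660 at day 0, while the day 7 replicates held 1024 and 947 over 626 and 659.

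Whether the gain grew between the mild drought of day 5 and the severe drought of day 7 is a question that the rule did not use, beyond the floor it sets for both days. Each drought library was divided by the day 0 mean of its own table, and the log2 values of day 7 and day 5 were compared with limma over all 5871 pairs. Not a single member passed an adjusted p of 0.05 with Benjamini-Hochberg adjustment, and 1 pair, or 0.017%, did. The smallest adjusted p of a member was 0.071 by limma. At an unadjusted p of 0.05 limma called 135 members, or 10.3%, with 96 higher and 39 lower at day 7. Over all pairs it called 19.5%, with 546 higher and 596 lower. Among the regions lost on both days it called 8.69%, with 94 higher and 82 lower. Both day 7 libraries lay above both day 5 libraries in 294 members, or 22.3%, against 24.0% of all pairs. Both lay below in 176 members, or 13.4%, against 25.7%. The rule leaves out pairs that moved in opposite directions on the 2 days, which narrows the range among members.

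The median difference, day 7 minus day 5, was 0.02 on the log2 scale over the members and -0.00 over all pairs. The difference was above 0 in 761 members, or 57.8%, against 49.9% of all pairs and 50.8% of the regions lost on both days. On unscaled reads the medians over the members and over all pairs were -0.23 and -0.25. The quartiles of the members were -0.07 and 0.12, and the full range ran from -0.48 to 0.59. A member's difference had a median SE of 0.10 and a 95% interval of 0.25 to either side. In 1127 members, or 85.6%, the whole interval lay within 0.5 of 0, and changes larger than that between the days were therefore outside the interval for those. This share was 79.2% over all pairs and 81.5% over the regions lost on both days. Differences smaller than a member's own interval were not detectable at 2 libraries a day. These intervals are not adjusted for the number of pairs. Differences beyond them could therefore still miss the adjusted threshold, as the largest, 0.59, did. The result depended on single libraries. The share of members above 0 was 48.3% without day 5 replicate 1 and 66.3% without day 5 replicate 2. This share was 61.9% without day 7 replicate 1 and 46.4% without day 7 replicate 2. Without day 5 replicate 1 the median difference was -0.01 over the members and -0.01 over all pairs. Without day 5 replicate 2 these medians were 0.07 and -0.001. In both fits limma called some members, though a smaller share of them than of all pairs. The members' median was 0.05 without day 7 replicate 1 and -0.02 without day 7 replicate 2, and limma called no pair in either fit. With 1 day 5 library left, that library is assumed to vary like the others.

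**Figure D5:**
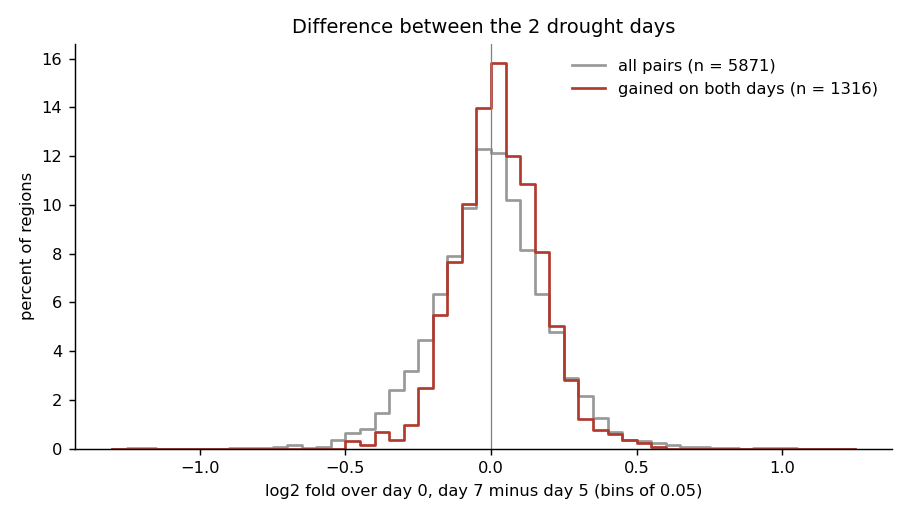
Percent of regions (y axis) by the difference of the log2 fold over day 0, day 7 minus day 5, in bins of 0.05 (x axis), for the 1316 members and all 5871 pairs. Both distributions centre near 0, with medians of 0.02 and -0.00, and the members range from -0.48 to 0.59.

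The largest rise from day 5 to day 7 lay on chromosome 11 at 4422701 to 4424600. Its reads over the day 0 mean were 1.59 and 1.93 times at day 5 and 2.48 and 2.80 times at day 7, a log2 difference of 0.59 (SE 0.12, limma adjusted p = 0.095). On chromosome 6 at 11054101 to 11056500 they were 1.47 and 1.64 times at day 5 and 2.18 and 2.30 times at day 7, a difference of 0.53 (SE 0.09, limma adjusted p = 0.076). On chromosome 12 at 12531101 to 12532800 the difference was 0.52, from 1.62 and 1.67 times to 2.18 and 2.55 times. On chromosome 4 at 5662801 to 5664400 it was 0.51, from 1.32 and 1.31 times to 1.83 and 1.91 times. In these 4 regions both day 7 libraries lay above both day 5 libraries, and no difference passed the adjusted threshold.

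The largest fall lay on chromosome 1 at 33773201 to 33775200, next to the strong member that ended 300 bp before it. Its reads were 2.18 and 2.77 times the day 0 mean at day 5 and 1.84 and 1.68 times at day 7, a log2 difference of -0.48 (SE 0.13, limma adjusted p = 0.13). The neighbour changed the same way by less, from 2.59 and 2.82 times to 2.42 and 2.25 times. On chromosome 1 at 22504901 to 22507100 the difference was also -0.48, from 1.98 and 1.95 times to 1.46 and 1.36 times (limma adjusted p = 0.077). On chromosome 11 at 11625301 to 11627900 it was -0.46, from 2.05 and 2.29 times to 1.46 and 1.70 times. On chromosome 7 at 3863501 to 3865700 it was -0.45, from 1.59 and 2.12 times to 1.36 and 1.32 times. Here both day 7 libraries lay below both day 5 libraries in all 4 regions. Over the settings tried, the adjusted p of these 8 regions ran from 0.0034 without day 5 replicate 1 to 0.97 on unscaled reads.

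Among the members, the extent of a region moved with this difference. A region's extent is set by the same drought contrast. The 552 members that were longer at day 7 had a median difference of 0.10, the 571 that were shorter had -0.03, and the 193 of equal length had 0.03. Over all pairs the medians were -0.003 for longer, 0.0002 for shorter and 0.004 for equal length. All pairs pool gained with lost regions, among them the 2025 lost on both days, so opposite shifts can cancel there. The same split was not made for the lost regions, so it is not known whether this trait is particular to the members. All 4 regions with the largest rises were longer at day 7 and all 4 with the largest falls were shorter. Over the 104 members of identical coordinates the differences ran from -0.22 to 0.28 with a median of 0.03. In a limma fit to the 593 identical pairs alone, 3 of these 104 had an unadjusted p under 0.05, and the smallest adjusted p was 0.64. Of all 593 pairs, 0 passed an adjusted p of 0.05 in that fit.

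Most members stood alone along the genome. They lay on all 19 chromosomes, apart from 3 members on scaffold 20. The next member was a median of 55650 bp away. Another member lay within 5 kb of 152 members, or 11.6%, against 12.3% for regions lost on both days. For regions gained at day 5 alone, 1453 in number, this share was 7.78%, and for the 2013 gained at day 7 alone it was 12.3%. With gaps of up to 5 kb, the members formed 63 runs of 2, 6 runs of 3 and 2 runs of 4.

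The first run of 4 spanned 12.9 kb on chromosome 10, from 13386801 to 13399700. Its members rose by 1.57, 1.52, 1.43 and 1.546-fold at day 5 and by 1.95, 1.38, 1.62 and 1.48-fold at day 7. The other spanned 11.8 kb on chromosome 4, from 19085901 to 19097700, with folds of 1.22, 1.48, 1.37 and 1.37 at day 5 and 1.31, 1.62, 1.61 and 1.43 at day 7. Among the runs of 3, that with the largest median of its members' smaller folds spanned 12.3 kb on chromosome 16, from 13492001 to 13504300. Its folds were 1.66, 1.65 and 1.37 at day 5 and 1.80, 1.84 and 1.39 at day 7. These 3 runs held 4, 4 and 3 listed regions at day 5 and 5, 4 and 3 at day 7. None was lower under drought, but nearly all were the members themselves, which are gains by the rule. A run of 3 on chromosome 12, from 13437101 to 13450100, did hold a lower region at day 7.

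Listed regions near a member mostly changed in the same direction. A listed region lay within 5 kb of 472 members at day 5, and the nearest was higher under drought in 369, or 78.2%. At day 7 these numbers were 532 and 417, or 78.4%. Near the regions lost on both days, the nearest was higher in 19.9% at day 5 and 29.7% at day 7. Over all listed regions, both drought libraries lay above both day 0 libraries in 45.8% at day 5 and 47.4% at day 7. Another member lay within 5 kb of 11.6% of members, and the direction of a member is set by the rule. The same holds in mirror for the lost regions, so these shares are a description without a test. A region of the opposite direction overlapped 5 members at day 5 and 18 at day 7.

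Chromosome 1 held the most members, 172. Per Mb up to the end of the last listed region of a chromosome, chromosome 8 held the most, with 104 members or 5.43 per Mb, and chromosome 19 the fewest, with 30 members or 1.89 per Mb. These 2 chromosomes also differed in all pairs, with 22.6 and 9.53 per Mb. Members made up 24.0% of the pairs on chromosome 8 and 19.9% on chromosome 19. The median fold was 1.38 at day 5 and 1.45 at day 7 on chromosome 8, and 1.42 and 1.43 on chromosome 19, near that of all members.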

How the data were processed

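H3K9ac ChIP-seq and input libraries were made from stem xylem at day 0, day 5 and day 7. Sonication gave chromatin of 200 to 1000 bp, and fragments near 250 bp went through 18 PCR cycles, per the labels' protocols. The submitters' processing notes name Bowtie without a version. The tables come from diffReps 1.55.4, per the file headers, whose negative binomial test ran on 1000 bp windows at steps of 100 bp and kept windows under a p-value of 0.0001, so only regions that passed it are listed. The deposited signal holds the normalised reads of both libraries of a group. The deposited ratio columns hold the enrichment of each group over its background, and per the file headers that background was the day 0 input for drought libraries and the drought input for day 0 libraries. The deposited log2 columns hold the log2 fold change of a region and of its best window. The deposited p-value columns hold the p-value and its Benjamini-Hochberg adjustment over 59188 tests at day 5 and 57991 at day 7, per the file headers.

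Chromosomes are named differently in the 2 tables and were joined by number. Normalised values multiplied by a constant fitted per library were whole within 0.1 in 100% of regions. The whole day 0 reads recovered in this way were equal in both tables in 593 of 593 pairs of identical coordinates. By these products, the listed regions held between 3862141 and 5813447 reads per library, which is not the library depth. Reads carry no molecular identifiers, so they are not independent molecules. The input change is the log2 ratio of the drought to the day 0 background, and input depth is unknown. For the fold relative to input, the median change of all listed regions was first subtracted from it.

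Day 7 was compared with day 5 with limma 3.58.1 in R 4.3.3 on log2 of each drought library over the day 0 mean of its table, without a pseudocount. The prior variance followed a trend with level, and p-values were adjusted over all pairs by Benjamini-Hochberg. The fit covers 4 libraries. Day 0 is the same divisor for both libraries of a day, so its error is not in the standard errors. The recovered reads were not put through a count model, since the columns hold normalised values. Tables were handled in Python 3.11.15 with pandas 2.3.3. Other settings of overlap, fold, enrichment, length, scaling, libraries and limma were tried.

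The members, the lists and the tests were chosen with earlier results of these data known. Named are the 8 members with the largest smaller fold, the 3 nearest to the fold threshold on either side, the 4 with the most day 0 reads per kb, the 4 most enriched, the 4 largest rises and falls from day 5 to day 7, the 3 longest runs, with ties taken by fold, the 2 largest rises and falls of input, and the 2 with the largest replicate ratio. The genome build is not fully given in the sources, and no genome was used, so genes and sequences are not reported.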

Additional observations from a re-analysis of the deposited data

How the results depend on the processing

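The 1316 members became 725 where at least 80% of each region had to overlap, 341 with a fold of at least 1.5 and 391 on unscaled reads. Under the other settings, with 1 bp of overlap, an enrichment of at least 1, no limit on length or a deposited adjusted p of at most 0.05, they numbered between 1268 and 1521, and 1251 to 1321 with a library left out, whose enrichment stayed that of the group. A requirement added after seeing the data, a gain above 0 relative to input on both days, left 1175. The median fold at day 7 was 1.17 on unscaled reads against 1.46, and between 1.42 and 1.48 under the other settings tried, and at day 5 it lay between 1.37 and 1.48 under every setting tried. The share of members with another within 5 kb, 11.6%, was 4.64% within 2 kb and 30.7% within 20 kb, as a shorter or longer distance gives.

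Between the days, the number of members called by limma was 0 under every setting that kept all 4 drought libraries, and between 0 and 26 with a library left out: 26 without day 5 replicate 1, 15 without day 5 replicate 2 and 0 without either day 7 replicate. The cause was not tested. The median difference over the members was -0.23 on unscaled reads, where that of all pairs was -0.25, and between -0.02 and 0.07 otherwise. Day 5 and day 7 share replicate numbers alone, and the deviations of same-numbered libraries correlated at 0.105 over all pairs, from 2 pairs of libraries. With the replicate number as a block, limma called 0 of the 5871 pairs. In that fit 134 members had an unadjusted p under 0.05, against 135 without the block. With 2 libraries a day, differences under about 0.25 on the log2 scale lay within the median interval of a member. That interval is not adjusted for the number of pairs, so larger differences could also miss the adjusted threshold.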
